A study of Mus musculus with 6 samples.

Results

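The numbered zinc finger protein genes are the mouse genes whose symbol is Zfp followed by digits alone. Of 54532 genes in the expression table, 374 carry such a symbol, and 246 were kept. They were selected by 2 criteria: the symbol, with Zfp36 left out because it encodes an mRNA-destabilizing protein of a different zinc finger class, and a mean of at least 3 TPM over both untreated libraries. TPM is a gene's read count divided by its transcript length and taken relative to the sum of these values in its library, so that levels of different genes can be compared per length. The other 127 lay under the floor, 27 of them listed at 0 in every library.

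RNA was sequenced from primary bone-marrow-derived macrophages (BMDMs) of wild-type C57BL/6 mice, matured in L929-conditioned medium, in 3 groups of 2 libraries. BMDMs were left untreated, spent 2 h with lipopolysaccharide (LPS) at 100 ng/ml, or received 5 mM metformin for 6 h before the same LPS stimulus (Met + LPS). LPS vs untreated gives the acute response, and Met + LPS vs LPS gives the difference that pretreatment made in stimulated cells. There was no group with metformin alone, so an effect of metformin on the response to LPS and one it has without LPS cannot be told apart. The labels do not say whether the libraries of a group came from separate mice, so p-values measure the spread between these libraries, which may be technical. Between 25457016 and 30762755 reads per library could be recovered from the TPM steps. All 9 macrophage markers examined were present, with a summed level of 45077 to 47078 TPM in untreated, 38034 to 38500 TPM in LPS and 31301 to 31368 TPM in Met + LPS libraries, while neutrophil and precursor markers summed to 29.9 to 32.6, 26.5 to 28.0 and 43.4 to 45.5 TPM. In bulk RNA, fewer cells of a type and less RNA per cell cannot be told apart.

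Most of these genes encode proteins of the C2H2 class, in which a pair of cysteines and a pair of histidines hold a zinc ion and each such finger contacts a few bases of DNA. A large subfamily begins with a KRAB domain, which recruits TRIM28 and, through it, the histone methyltransferase SETDB1, and is known for silencing retroelements and imprinted loci. KRAB zinc finger genes multiplied by tandem duplication and often lie in clusters of related copies. Others of these genes lack KRAB and serve as promoter-binding factors, corepressor partners, RNA-binding proteins or ubiquitin ligases.

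Among the 243 members annotated as protein coding, the translated coding sequence held a median of 11 C2H2 fingers. The counts ran from 0 in 5 proteins to 36 in Zfp142, and 137 proteins had 10 or more. A KRAB-type sequence was found in 128. These had a median of 12 fingers and a median untreated level of 7.31 TPM, against 7 fingers and 15.5 TPM in the 115 without one. The annotation types Zfp469 as a long intergenic RNA and Zfp939 and Zfp125 as transcribed pseudogenes. Because the copies resemble one another, the share of each gene's 31-base words found in no other gene was computed. It was at least 80% for 204 members and under 50% for 8, among them Zfp993 at 8.10%, Zfp991 at 12.03% and Zfp984 at 31.2%, whose values are uncertain since their reads could be split between copies.

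Some members had in common a promoter sequence that the selection did not use. In the windows from 250 bases before to 50 bases after each start (RefSeq, GRCm38.p6), which 206 members matched, ACTACA followed after 2 unspecified bases by TCCC occurred on either strand in 40 promoters (19.4%). This element resembles the motif known for ZNF143, the human counterpart of Zfp143. It occurred in 2.08% of all 27025 promoters, and in 5.07% of the 7805 available promoters of other tested genes past the same floor. In the numbered Zfp genes under the floor the share was 12.4% of 97. Among members with a KRAB-type sequence the share was 25.9% of 116, and among those without it 11.2% of 89. It was 25.6% of 125 in genomic groups of 3 or more members and 9.88% of 81 elsewhere. In 29 of the 40 promoters the element read on the strand opposite to the gene, where it appears as GGGA, 2 bases and TGTAGT. The median distance of its first base from the start was 51.5 bases. Some surroundings are alike, as in Zfp455 and Zfp429, and others differ, in a set of 8 stretches of 60 bases. This set is written in the direction of the gene with the element in capitals. It holds the 4 with the most negative and the 4 with the least negative or positive difference between LPS and untreated BMDMs among those elements that lie fully upstream with room for the stretch.
Zfp444, chr7:6172349-6172408, plus strand: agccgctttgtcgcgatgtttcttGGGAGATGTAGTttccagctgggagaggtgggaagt
Zfp566, chr7:30090551-30090610, minus strand: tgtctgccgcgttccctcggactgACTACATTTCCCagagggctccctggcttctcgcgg
Zfp661, chr2:127584722-127584781, minus strand: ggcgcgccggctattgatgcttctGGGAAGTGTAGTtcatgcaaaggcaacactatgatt
Zfp109, chr7:24237688-24237747, minus strand: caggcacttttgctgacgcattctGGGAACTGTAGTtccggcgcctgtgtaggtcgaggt
Zfp712, chr13:67061191-67061250, minus strand: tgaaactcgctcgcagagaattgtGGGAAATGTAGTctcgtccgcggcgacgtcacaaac
Zfp455, chr13:67194426-67194485, plus strand: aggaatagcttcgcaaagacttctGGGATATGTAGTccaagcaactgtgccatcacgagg
Zfp146, chr7:30169836-30169895, minus strand: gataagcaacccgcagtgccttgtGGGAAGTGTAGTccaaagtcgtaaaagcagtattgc
Zfp429, chr13:67399803-67399862, minus strand: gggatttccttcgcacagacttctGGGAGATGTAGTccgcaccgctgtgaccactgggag

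The other motifs searched are given beside the same background. CCGGAAG, the ETS-type core, was in 22.3% of member promoters and 22.9% of those of the other tested genes past the floor, and never overlapped the element above. The CRE-type palindrome TGACGTCA was in 4.37% against 3.69%, the AP-1-type TGANTCA in 4.37% against 6.00% and the E-box CACGTG in 7.28% against 12.8%. A κB site of GGGAC directly followed by TTTCC was in 0 of 206 member promoters and 0.218% of the others, and TCTCG directly followed by CGAGA was in 0.485% against 1.35%. A match describes letters only and shows no binding.

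LPS vs untreated asks how the acute response altered these transcripts. Because untreated libraries chose the members, the comparison is described without a test. The summed level of the 246 genes was 3603 and 3588 TPM in untreated, 2323 and 2283 TPM in LPS, and 2246 and 2235 TPM in Met + LPS libraries. The pair of values within each group lay close together, and the stimulated groups lay far below the untreated one. The median member stood at 10.1 and 9.79 TPM untreated and at 4.66 and 4.39 TPM after LPS, and the number of members under 1 TPM went from 0 in both untreated libraries to 21 and 26.

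Expressed as a log2 fold change of log2(TPM + 1), a scale that understates changes of low genes, the median member was at -1.01, with quartiles of -1.40 and -0.65. The median was -0.48 over all 12755 tested genes and -0.51 over the 10106 other tested genes past the same floor. Both LPS libraries lay below both untreated libraries for 222 members (90.2%), where 71.5% of all tested genes and 76.6% of the others past the floor did so. Both lay above for 15 members, against 20.1% of all tested genes. For 9 members the groups overlapped. A log2 fold change of -1 or lower was found for 123 members (50%), against 19.9% of all tested genes and 20.8% of the others past the floor. For -2 or lower the number was 8, against 2.38% of all tested genes. Only 4 members reached 1 (8.71% of all tested genes) and only Zfp800 reached 2 (3.73% of all tested genes). These percentages stand beside the counts and nothing is read from them, since the same untreated libraries set the floor.

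**Figure D1:**
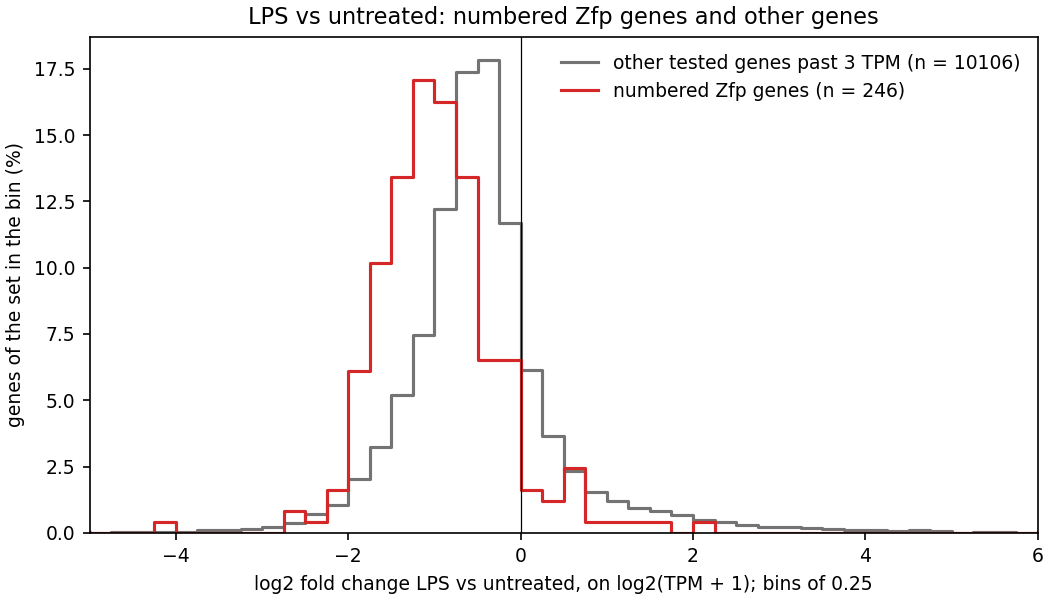
Share of genes (percent, y axis) in each bin of log2 fold change between LPS and untreated BMDMs (x axis, log2(TPM + 1) scale, means of 2 libraries per group), for the 246 numbered Zfp genes (red) and the 10106 other tested genes past 3 TPM (grey). The Zfp curve lies to the left of the grey one, with medians of -1.01 and -0.51, and has a short right tail that ends at 2.14.

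By untreated level, again as a description, members at 3 to 5 TPM had a median of -1.01 and other genes at that level -0.68. The medians were -1.06 and -0.68 at 5 to 10 TPM, -1.01 and -0.58 at 10 to 30 TPM, and -0.71 and -0.40 above 30 TPM. When 1 untreated library set the floor and the other served as the reference, both choices gave a median of -0.996. Nothing is read from this value, since both untreated libraries took part in choosing the members. TPM are shares of a library, and rescaling the libraries by their median ratio moved the median of all tested genes from -0.48 to -0.01 and that of the members to -0.56. On that scale 191 members were still below in both LPS libraries and 46 above. Of all 12755 tested genes, 43.3% were below and 5381 were above. Genes and lists in the following paragraphs are given without this rescaling. There, a log2 fold change above -0.48 is a smaller decrease than that of the median tested gene, or an increase.

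On the log2(TPM + 1) scale, the 6 largest decreases were found in Zfp395, Zfp469, Zfp652, Zfp251, Zfp316 and Zfp362. By the plain ratio of untreated to LPS means, some lower genes changed more, such as Zfp810 at 10.1 beside Zfp251 at 6.58. Zfp395, whose human counterpart was described as binding the huntingtin and papillomavirus promoters, lies at chr14:65358389-65398930 on GRCm38. It was at 35.6 and 34.6 TPM in untreated, 0.999 and 1.04 TPM in LPS and 1.73 and 1.12 TPM in Met + LPS libraries, a ratio of 34.4 between the untreated and LPS means. Every stimulated library lay far below the untreated ones, and the lowest value rests on 36 reads. Zfp704, a relative of Zfp395 in the same small family, was at 20.4 and 19.1 TPM in untreated and 4.12 and 4.33 TPM in LPS. Zfp652, which represses transcription together with the corepressor CBFA2T3, was at 17.9 and 18.5 TPM in untreated, 2.13 and 2.10 TPM in LPS, and 4.18 and 3.62 TPM in Met + LPS; its exons overlap those of Phospho1, Abi3 and Zfp652os. Its Met + LPS values lay between the other groups without touching either. The log2 fold changes of Zfp251, Zfp316 and Zfp362 were -2.27, -2.20 and -2.15, and their untreated and LPS libraries did not overlap.

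The 6 largest increases on the log2(TPM + 1) scale were those of Zfp800, Zfp263, Zfp281, Zfp945, Zfp382 and Zfp131. Zfp800 (chr6:28239927-28398005) was at 18.4 and 17.9 TPM in untreated, 83.0 and 83.4 TPM in LPS and 77.7 and 79.7 TPM in Met + LPS libraries, 4.59-fold higher in the LPS mean. Zfp263 (chr16:3744093-3750790), a DNA-binding regulator, was at 67.5 and 72.0 TPM in untreated, 209 and 211 TPM in LPS, and 159 and 159 TPM in Met + LPS, which made it the most abundant member in both stimulated groups. Zfp281, a GC-box-binding factor known from embryonic stem cells, was at 28.8 and 28.4, then 74.6 and 72.2, then 62.0 and 57.5 TPM. None of these 3 genes had overlapping libraries between untreated and either stimulated group. Zfp945, a KRAB gene of the largest cluster, had means of 3.80, 8.78 and 12.7 TPM in untreated, LPS and Met + LPS BMDMs. The KRAB gene Zfp382 had means of 12.5, 25.1 and 29.99 TPM, and Zfp131, a BTB-domain protein, 22.8, 38.4 and 41.9 TPM. The remaining 9 members with both LPS libraries above both untreated ones were Zfp217, Zfp319, Zfp429, Zfp462, Zfp513, Zfp609, Zfp654, Zfp719 and Zfp949, with log2 fold changes from 0.03 to 0.62.

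**Figure D2:**
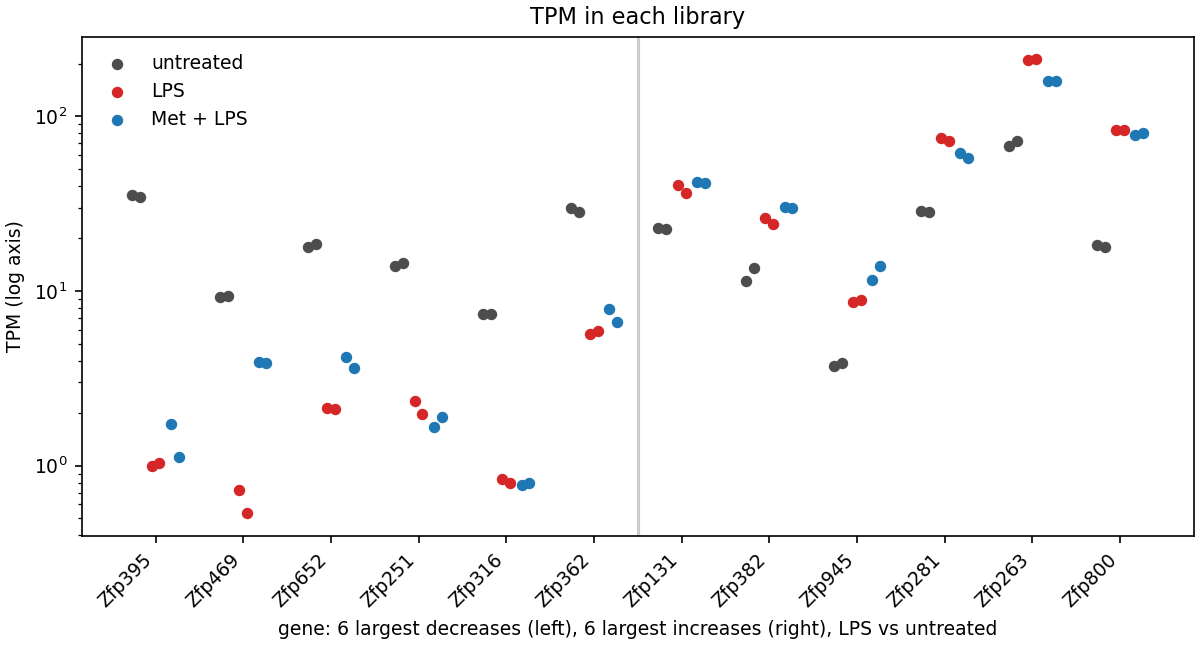
TPM (y axis, log scale) in each of the 6 libraries, where each point is 1 library. Shown (x axis) are the 6 largest decreases and the 6 largest increases among members in LPS vs untreated, on the log2(TPM + 1) scale. Zfp395 went from 35.6 and 34.6 TPM to 0.999 and 1.04 TPM, and Zfp800 from 18.4 and 17.9 TPM to 83.0 and 83.4 TPM.

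The most abundant members in untreated BMDMs were of varied function. Zfp710 led with 95.1 and 97.4 TPM and was at 30.95 and 36.7 TPM in LPS. Zfp91, a ubiquitin ligase linked to noncanonical NF-κB signaling, was at 70.6 and 70.1 TPM and then at 35.4 and 36.3 TPM. Zfp207, a kinetochore and spindle protein, was at 68.0 and 66.5 TPM and then at 62.4 and 57.3 TPM. Unlike Zfp710 and Zfp91, Zfp207 kept most of its level in TPM, a scale on which the median tested gene decreased. Its groups did not overlap. Zfp217, part of CoREST and CtBP corepressor complexes, was higher in LPS, with 81.3 and 81.6 TPM against 55.8 and 57.5 TPM. Zfp106, an RNA-binding protein, had means of 67.0 TPM in untreated and 41.2 TPM in LPS. The means of Zfp706 were 51.1 and 35.3 TPM. Zfp445, a KRAB protein that maintains genomic imprints, had means of 49.3 and 29.8 TPM and was the most abundant member with a KRAB-type sequence in untreated BMDMs.

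Sorted by role, the lists of 4 to 10 genes differed in their medians, but also in untreated level. The median untreated level ran from 9.24 TPM in the KRAB repressors to 45.6 TPM in the ubiquitin ligases and ribosome-linked proteins. A bearing of level on these medians was not tested. The 5 ubiquitin ligases and ribosome-linked proteins had a median log2 fold change of -0.22 in LPS vs untreated. Among them Zfp598, the ligase that marks collided ribosomes, was at 42.3 and 48.9 TPM in untreated and 47.4 and 49.2 TPM in LPS, with overlapping groups. Zfp622, a factor of 60S ribosome maturation, had means of 23.7 and 20.1 TPM. The 10 promoter-binding factors had a median of -0.60 and a wide range, from Zfp740 at -1.84 and Zfp219 at -1.59 to Zfp263 at 1.58. Zfp143, whose human counterpart is known for the element printed above, was at 26.9 and 24.6 TPM in untreated and 24.4 and 24.3 TPM in LPS, a log2 fold change of -0.08. Zfp410, an activator of Chd4, was at 8.66 and 9.12 TPM and then at 5.93 and 5.79 TPM, while Chd4 itself had means of 203 and 231 TPM. The median of the 6 RNA-processing and spindle proteins was -0.57, that of the 9 corepressor partners without KRAB -0.28, and that of the 4 metabolic and stress regulators -0.94. In the last list Zfp692, which AMP-activated protein kinase is known to phosphorylate, was at 16.7 and 20.4 TPM in untreated, 7.83 and 7.89 TPM in LPS, and 7.88 and 10.2 TPM in Met + LPS libraries. Its stimulated groups overlapped each other and lay below the untreated one.

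The 6 KRAB repressors with known retroelement or imprinting targets had a median of -0.69. Zfp809, which binds a murine leukemia virus primer site and recruits TRIM28 there, was at 19.2 and 17.97 TPM in untreated and 7.01 and 6.06 TPM in LPS. Zfp568, a repressor of a placental Igf2 promoter, was at 6.97 and 6.59 TPM and then at 6.09 and 6.00 TPM. The groups did not overlap for either gene, but Zfp568 moved little on the TPM scale. Zfp429 was higher in LPS, with means of 10.3 and 16.4 TPM, and 59.9% of its 31-base words were its own.

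Across all 128 members with a KRAB-type sequence the median was -1.09, with 120 below and 5 above in both LPS libraries. Of all tested genes, 71.5% were below and 20.1% above. The sum of these 128 members was 1312 and 1292 TPM in untreated and 634 and 599 TPM in LPS. Across the 115 without one the median was -0.88, with 99 below and 10 above, and their sum was 2273 and 2278 TPM and then 1685 and 1681 TPM. At 3 to 10 TPM the medians were -1.04 with and -0.999 without a match to the KRAB-type pattern, and above 10 TPM they were -1.15 and -0.75. The split rests on this pattern alone, so members without a match may still encode the domain. By finger number the medians were -0.75 for 0 to 3 fingers, -1.08 for 4 to 9, -1.05 for 10 to 14 and -0.97 for 15 or more. Among the 5 proteins without a finger match, Zfp839 was at -1.77 and Zfp503, which is known as a corepressor, at -1.36, while Zfp330 and Zfp703 were at -0.10 and -0.28.

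Members with the promoter element had a median of -0.98 in LPS vs untreated and members without it -1.03. The element was in the promoters of 39 of 188 members with both LPS libraries below and in 1 of 12 with both above. That single promoter belonged to Zfp429, and 12 promoters are too few to compare the shares. Among the other tested genes past the floor, the medians were -0.54 for 396 genes with the element and -0.50 for those without. Of these 396 genes with the element, 334 were below and 48 above in both LPS libraries. Of all other tested genes past the floor, 76.6% were below and 18.1% above.

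The members lay close together in the genome. Joining neighbours within 1 Mb gave 111 groups, 77 of them a single gene, and 22 groups of 3 or more held 145 members. Chromosome 7 carried 62 members and chromosome 17 carried 34. The largest group, chr17:21008903-23564238, held 20 members, 18 with a KRAB-type sequence. Its median was -1.10, with 17 members below and only Zfp945 above in both LPS libraries. The shares of all tested genes, for this and the next groups, were 71.5% below and 20.1% above. The 13 members at chr13:67038596-67827002 had a median of -0.89, with 12 below and Zfp429 above. In the 11 at chr7:29768552-30169750 the median was -0.90, with 10 below and Zfp382 above. In the last 2 groups every other member was below, while in the chromosome 17 group Zfp160 and Zfp213 overlapped between untreated and LPS libraries. The medians of the 14 groups of 5 or more ranged from -1.58, on chromosome 15, to -0.66, on chromosome 4.

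**Figure D3:**
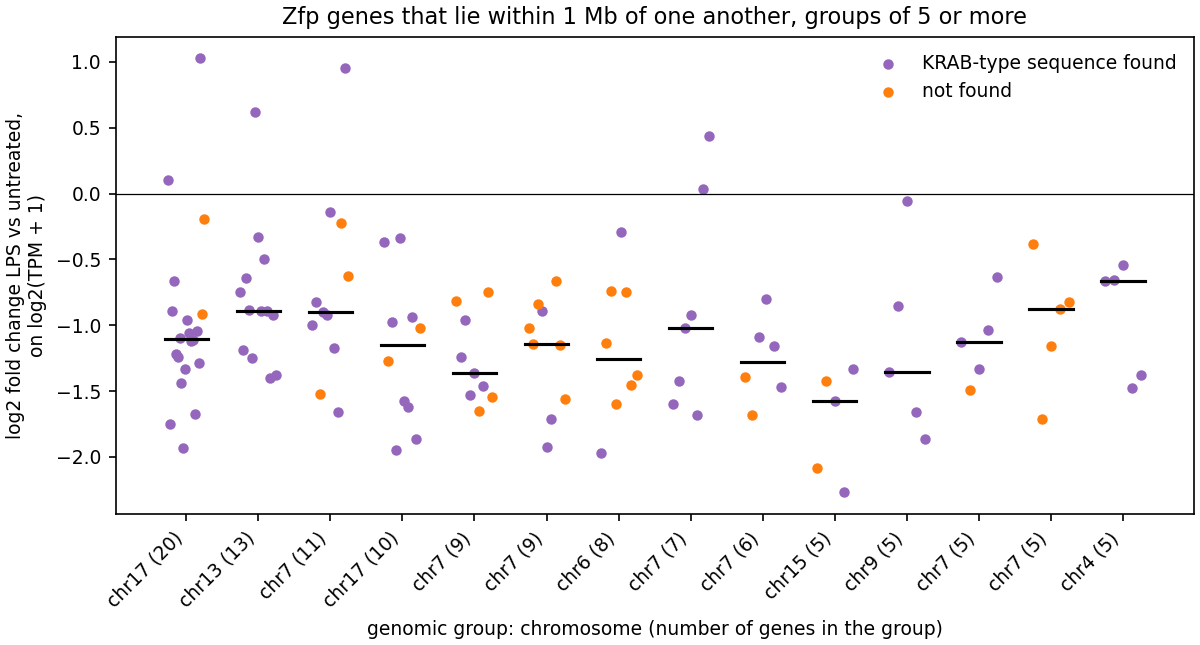
Log2 fold change between LPS and untreated BMDMs (y axis, log2(TPM + 1) scale) for the members of each genomic group of 5 or more (x axis, chromosome and number of members); points are genes in genomic order, coloured by whether a KRAB-type sequence was found, and bars are group medians. All 14 medians lie between -1.58 and -0.66, and few genes lie above 0.

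The log2 fold changes of Met + LPS vs LPS use no library that chose the members. This comparison was tested by limma over all tested genes. The spread behind its standard errors and p-values was estimated from all 6 libraries, the untreated ones included. The median member was at -0.03 on the log2 scale, as was the median of all tested genes. Genes were called at a limma adjusted p (Benjamini-Hochberg) under 0.01 and a log2 fold change of 0.7 or more in either direction. The pretreatment raised 4 members, Zfp469, Zfp275, Zfp704 and Zfp775, where 4.19% of all tested genes were higher. It lowered 4 members, Zfp1, Zfp580, Zfp961 and Zfp710, where 4.09% were lower. The 8 called members are 3.25% of 246, beside 8.28% of all tested genes and 8.32% of the others past the floor. By untreated level, 0%, 5.33%, 3.03% and 4.17% of members were called at 3 to 5, 5 to 10, 10 to 30 and over 30 TPM, and 9.46%, 7.55%, 8.48% and 8.25% of the other genes. Standard errors of the members ran from 0.0380 to 0.195.

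Zfp469 (chr8:122269569-122272650), whose human counterpart is mutated in brittle cornea syndrome, was at 9.26 and 9.33 TPM in untreated, 0.725 and 0.534 TPM in LPS, and 3.91 and 3.85 TPM in Met + LPS libraries. It thus reached a level between untreated and LPS, 6.16-fold above the LPS mean, with a log2 fold change of 1.58 ± 0.096 (SE, limma adjusted p = 5.33e-05); the LPS value rests on as few as 12 reads. Zfp275 (chrX:73342621-73359080) was at 23.4 and 21.3, then 8.65 and 8.45, then 16.5 and 15.03 TPM, a rise of 0.81 ± 0.071 (limma adjusted p = 0.00022). Zfp704 (chr3:9427020-9610085) was at 8.00 and 7.47 TPM in Met + LPS against 4.12 and 4.33 TPM in LPS, a rise of 0.74 ± 0.069 (limma adjusted p = 0.000273). Like Zfp469, both stood between their untreated and LPS levels. Zfp775 (chr6:48602063-48623227) was at 3.30 and 3.09 TPM against 1.52 and 1.61 TPM (0.71 ± 0.142, limma adjusted p = 0.00681). The call of Zfp775 was lost when any LPS or Met + LPS library was left out, with values of 0.67 to 0.75, and its exons overlap those of 3 other genes; Zfp704 came to 0.697, just under the fold minimum, without Met + LPS replicate 1.

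Zfp710 (chr7:80024814-80094173), the most abundant member in untreated BMDMs, was lower at each step. Its TPM were 95.1 and 97.4 in untreated, 30.95 and 36.7 in LPS, and 20.2 and 19.8 in Met + LPS, and pretreatment changed it by -0.73 ± 0.077 (limma adjusted p = 0.000476). Without LPS replicate 2 the value was -0.61, under the fold minimum. The KRAB gene Zfp961 (chr8:71951038-71993792) was at 7.98 and 8.31, then 4.70 and 4.27, then 2.08 and 2.19 TPM, with a change of -0.81 ± 0.084 (limma adjusted p = 0.000433). The 3 groups of both genes were separate and ordered from untreated to Met + LPS. Zfp1 (chr8:111643401-111671011), also with KRAB, was at 9.799 and 10.3, then 5.15 and 6.11, then 2.14 and 3.16 TPM (-0.87 ± 0.145, limma adjusted p = 0.00319). Zfp580 (chr7:5051538-5053723) was at 6.06 and 5.55, then 3.34 and 2.40, then 1.37 and 0.898 TPM (-0.86 ± 0.163, limma adjusted p = 0.00547), the lowest of these on 10 reads. These 2 calls were the least firm: each was lost in most of the fits that left out 1 library, with values from -1.07 to -0.67 for Zfp1 and from -1.03 to -0.68 for Zfp580. The number of called members was 4 without Met + LPS replicate 1, 5 without LPS replicate 1 and at most 7 when any other library was left out.

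**Figure D4:**
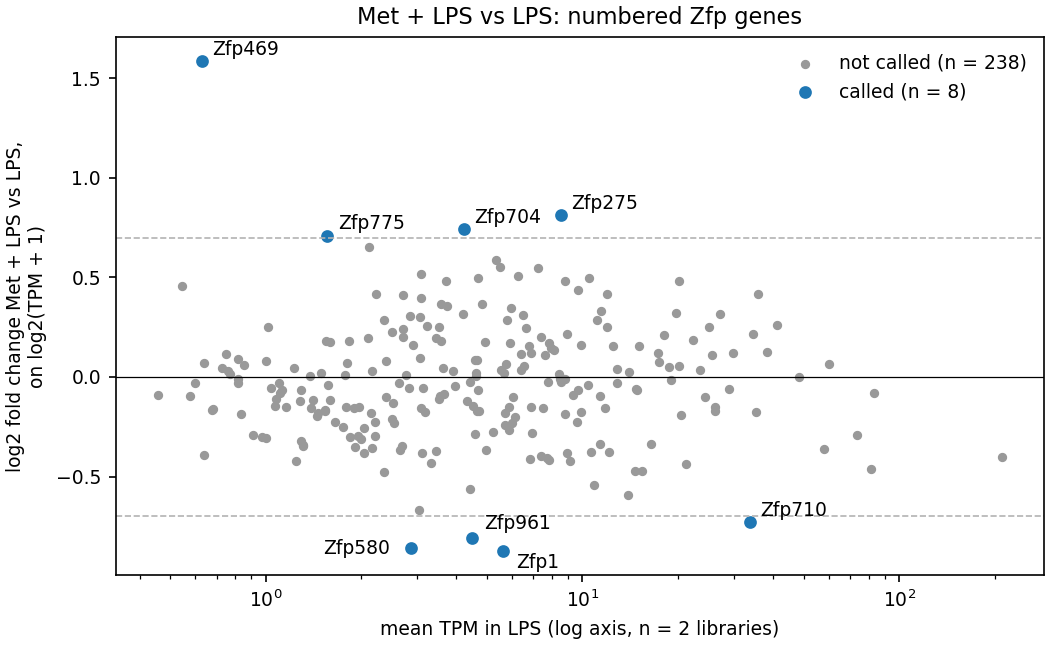
Effect of pretreatment as the log2 ratio of Met + LPS to LPS (y axis, log2(TPM + 1) scale) against the mean TPM in LPS (x axis, log scale, 2 libraries) for the 246 members; the 8 called members are blue and named, and dashed lines mark the fold minimum of 0.7. Zfp469 stands apart at 1.58, and most other members lie within the dashed lines around 0.

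Without the fold minimum, 25 members were higher (14.5% of all tested genes) and 23 lower (18.0% of all tested genes) at a limma adjusted p under 0.01. Among the roles, Zfp91 rose by 0.42 ± 0.0426 (adjusted p = 0.000408), from means of 35.9 to 48.3 TPM, and Zfp622 by 0.48 ± 0.0637 (adjusted p = 0.00124), from 20.1 to 28.5 TPM. Zfp652 rose by 0.65 ± 0.0825 (adjusted p = 0.00102), just under the fold minimum. Of the 6 members with the largest increases in LPS vs untreated, Zfp263 changed by -0.40 ± 0.0396 (adjusted p = 0.00035) and Zfp281 by -0.29 ± 0.048 (adjusted p = 0.00295), whereas Zfp945 rose by 0.48 (adjusted p = 0.00586). Zfp800 at -0.08, Zfp382 at 0.25 and Zfp131 at 0.13 did not pass the test (adjusted p = 0.131, 0.0437 and 0.11). Zfp217, also higher in LPS, changed by -0.46 ± 0.0407 (adjusted p = 0.000229), to 60.4 and 57.4 TPM, beside 55.8 and 57.5 TPM in untreated libraries. Of the 6 retroelement and imprinting repressors, Zfp961, described above, and Zfp429 at -0.34 (adjusted p = 0.00565) passed the test without the fold minimum, both lower. The other 4 did not: Zfp809 was at 0.05, Zfp445 at 0.12, Zfp568 at -0.10 and Zfp932 at 0.30 (adjusted p = 0.627, 0.139, 0.308 and 0.059). Members with a KRAB-type sequence had 0 calls higher and 2 lower (1.56%), those without one 3 higher and 2 lower (4.35%), beside 8.28% of all tested genes, and Zfp469, annotated as non-coding, makes up the rest. On chromosome 4, the group at 146449023 to 147848366 had a median of 0.49, with Zfp984, Zfp991 and Zfp993 at 0.50, 0.49 and 0.52 (adjusted p = 0.00285, 0.00232 and 0.00586). These 3 share most of their 31-base words with other genes, so they are not independent of one another.

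Met + LPS vs untreated, described without a test, shares the untreated libraries with LPS vs untreated. The median member was at -1.03 and the median of all tested genes at -0.48. Both Met + LPS libraries lay below both untreated ones for 224 members, against 69.1% of all tested genes, and above for 17, against 21.7%. The members' median levels were 4.64 and 4.50 TPM in Met + LPS, next to 4.66 and 4.39 TPM in LPS.

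The KRAB partners were measured on the same scale. The list of 32 tested genes for TRIM28-linked repression, histone and DNA methylation had a median of -0.71 in LPS vs untreated, with 26 below and 5 above in both LPS libraries, beside 71.5% and 20.1% of all tested genes. Trim28, the scaffold that KRAB domains bind, was at 135 and 137 TPM in untreated, 80.6 and 78.5 TPM in LPS, and 98.0 and 94.7 TPM in Met + LPS. Setdb1, which methylates histone H3 lysine 9 at its targets, had means of 41.2, 14.5 and 17.2 TPM. Pretreatment raised Trim28 by 0.27 ± 0.0359 (limma adjusted p = 0.00118) and Setdb1 by 0.23 ± 0.0446 (limma adjusted p = 0.00575), both under the fold minimum. Of the 32 genes, 2 were called (6.25%, beside 8.28% of all tested genes). The de novo DNA methyltransferase Dnmt3a rose by 1.32 ± 0.0422 (limma adjusted p = 8.59e-06), with 91.7 and 90.4 TPM in untreated, 21.4 and 22.6 TPM in LPS, and 57.3 and 56.0 TPM in Met + LPS. Uhrf1, which guides maintenance DNA methylation, changed by -0.70 ± 0.0829 (limma adjusted p = 0.000764), with 27.8 and 29.0, then 11.2 and 10.4, then 6.80 and 5.76 TPM. Without the fold minimum 7 of the 32 were higher and 7 lower, beside 14.5% and 18.0% of all tested genes. The 5 genes above in both LPS libraries were Chd4, Daxx, Hdac1, Hdac2 and Morc3. Among them Daxx, the histone H3.3 chaperone and an interferon-inducible gene, had the largest difference, with 52.5 and 54.3 TPM in untreated, 438 and 496 TPM in LPS, and 315 and 303 TPM in Met + LPS.

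Other zinc finger families past the same floor give a frame. The median in LPS vs untreated was -0.65 for 33 Zbtb genes, -1.18 for 15 Zscan and Zkscan genes and -0.64 for 10 Klf genes. In Met + LPS vs LPS their medians were 0.13, -0.05 and 0.05. The Zscan and Zkscan genes, like the numbered members often clustered copies, were thus nearest to the members' -1.01. These families were divided by symbol alone, so numbered members can encode the same domains. At the floor itself, the members just inside were Zfp94, Zfp712 and Zfp975, each at a mean of 3.01 TPM untreated, with log2 fold changes of -1.46, -0.75 and -0.92 in LPS vs untreated. The genes just outside, Zfp951, Zfp947 and Zfp667, were at 2.79, 2.80 and 2.90 TPM untreated, with -0.66, -1.26 and -1.38.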

How the data were processed

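Libraries were poly(A)-selected and sequenced as single ends. The authors aligned reads to GRCm38 (Ensembl) with STAR 2.6.1d and SAMtools 1.9, counted them per gene with featureCounts (Subread 1.6.3) and deposited TPM values, 1 column per library; no column was without a sample. TPM hide shifts in total RNA and divide by annotated length. Whole reads could be recovered for 96.1% to 96.3% of the values with lengths from GENCODE M21 (tolerance 0.02), and for 234 members; whether counting used strand is not given in the sources used here, and 57 members overlap a gene on the other strand.

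The 246 members, the gene lists and the tests were chosen with earlier results of these data known. The 12755 genes that reached 1 TPM in 2 or more libraries were fitted in 1 limma model (limma 3.58.1, R 4.3.3) on log2(TPM + 1) over all 6 libraries with a mean-variance trend. All 246 members passed this filter. Only Met + LPS vs LPS was tested for members, since untreated libraries chose them. The code was checked on data made with known changes. Named members are the 8 highest untreated, the 6 largest decreases and increases in LPS vs untreated, the members called in Met + LPS vs LPS, the 3 on each side of the floor, the role lists and the extremes of finger number; further genes named in the text (members higher in LPS, the chromosome 4 group, the sequences shown, Trim28, Setdb1, Daxx and Chd4) were picked after their values were seen. Fingers and KRAB-type sequences were counted by pattern in translated GENCODE M21 coding sequences; this source, a wider KRAB pattern than the planned one (128 rather than 97 members), and the expressed-gene background for motifs were added after the data were seen. Alternatives changed the pseudocount, filter, scaling, floor, model and libraries.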

Additional observations from a re-analysis of the deposited data

How the results depend on the processing

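For Met + LPS vs LPS, 8 members were called (4 higher, 4 lower); the number was 5 (2 lower) without a filter, 2 lower with LPS and Met + LPS libraries alone, 48 (25 higher, 23 lower) without a fold minimum, 5 (2 higher) with the floor on the LPS and Met + LPS means and 4 (2 higher, 2 lower) with a floor of 10 TPM, where fewer members qualify. Leaving out 1 library gave 4 to 7 calls, 2 to 4 higher and 2 to 3 lower. With limma voom on recovered reads there were 11, also with a pseudocount of 0.1. The median of the members in this comparison, -0.03, turned to 0.011, 0.025 and 0.019 with the floor on all 6 libraries, on the LPS and Met + LPS libraries, and at 10 TPM, and ranged from -0.075 to -0.0086 with a library left out. The median in LPS vs untreated was -1.20 with a pseudocount of 0.1, -0.56 after median-ratio rescaling, -0.93 and -0.81 with those first 2 floors, -1.24 with voom (added after the data were seen) and -1.03 to -0.97 with a library left out; that in Met + LPS vs untreated was -1.22, -0.60, -0.86 and -0.77, -0.89 at a floor of 10 TPM, -0.99 in members with at least 80% own 31-base words and -1.04 to -1.02 with a library left out. Members below in both LPS libraries numbered 133 of 155 and 109 of 123 with the floor on stimulated libraries and at 10 TPM. Of all tested genes, without a floor, 71.5% were below. Among other tested genes the share was 77.5% at 10 to 30 TPM untreated and 75.4% over 30 TPM. No range is given for the count of members below with a library left out, since comparing fewer libraries can only keep or raise it. Of the corepressor list 1 gene was called after rescaling, 14 without a fold minimum, and 2 with any library left out. Replicate numbers did not pair the libraries (deviations of same-numbered libraries correlated at -0.0037, 0.028 and 0.0062 across genes), and with the replicate number as a block 8 members were called, 4 in each direction. Among the named members, Zfp652 passed the fold minimum with a pseudocount of 0.1 (0.85), with voom (0.90) and without Met + LPS replicate 2 (0.73). The cause of these shifts was not tested. With 2 libraries a group and under 50 reads in some library for 63 members, small changes of low members could not be resolved.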
